A study of Homo sapiens with 8 samples.

Results

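The 36 genes described here act in S phase and DNA replication, and they were taken by gene name from a table of 62649 genes. All 36 of 36 names were found, and all 36 passed the filter on low values, so every member enters each result below. By role, 10 act in origin licensing, 6 in helicase activation, 7 at the replication fork, 3 in nucleotide supply, 4 in the control of the G1/S transition, 4 in chromatin assembly and histone supply, and 2 in the S phase checkpoint and the destruction of CDT1. The rule that picks them uses names alone, but the list was drawn up with earlier results of these data known. Member counts and medians set beside those of all genes are therefore descriptions and no test of the list.

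Before S phase, the origin recognition complex, CDC6 and CDT1 load the ring of MCM2 to MCM7 onto DNA. MCM10, CDC45 and the GINS complex then turn that ring into an active helicase, and polymerases held by the sliding clamp PCNA copy the strands behind it. Many genes of this machinery are targets of the E2F transcription factors, which the retinoblastoma protein restrains until cyclin D and cyclin E kinases release them. ERK signalling feeds this switch through cyclin D. Trametinib blocks MEK, the kinase directly above ERK.

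The measurements come from 8 RNA libraries of 2 human pancreatic cancer lines, AsPC-1, derived from ascites cells of a patient with pancreatic adenocarcinoma, and PANC-1, derived from a pancreatic ductal carcinoma (the labels give the genotype of both as WT). In both lines all groups grew for 3 days as spheroids in a methylcellulose medium and were then treated for 24 h. Each line had 4 groups: vehicle, 10 µM roseoflavin (a natural analogue of riboflavin), 1 nM trametinib (a MEK inhibitor), or both compounds at those doses. Each group was 1 library, so the errors below come from models in which the other line or the other compound stands in for replication. Nothing in the labels says that libraries came from separate cultures, so p-values measure only the spread between these 8 libraries.

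Levels are in TPM, transcript abundances scaled for gene length and to a common total in every library. Steps in the low TPM values put the depth at an estimated 19500000 to 28000000 reads per library, and the members rested on 98 reads (GINS3) to 5704 reads (MCM7) in a library. Transcripts of the mitochondrial genome made up 41.2% to 44.1% of each AsPC-1 library's TPM and 22.8% to 25.6% in PANC-1. The epithelial keratins KRT8, KRT18 and KRT19 were at 852 TPM or more in all 8 libraries, EPCAM was at 1256 TPM in the AsPC-1 vehicle library and 16.5 TPM in the PANC-1 one, and CDH2 was listed at 0 in AsPC-1 and at 5.48 to 5.57 TPM in PANC-1. The epithelial marker CDH1 was at 56.1 to 78.7 TPM in AsPC-1 and 5.02 to 6.555 TPM in PANC-1. CEACAM6 was at 1775 to 2104 TPM in AsPC-1 and 0.097 TPM or lower in PANC-1. The other mesenchymal markers were also higher in every PANC-1 library than in any AsPC-1 library, though all had values above 0 in AsPC-1. VIM was at 660 to 816 TPM in AsPC-1 and 3132 to 3391 TPM in PANC-1. ZEB1 was at 7.67 to 9.06 TPM and 16.9 to 18.8 TPM, and FN1 at 0.006 to 0.026 TPM and 0.367 to 0.533 TPM. Of the markers of other cells, PTPRC, CD3E, PECAM1, CDH5, INS and PRSS1 were at 0.158 TPM or lower in all 8 libraries. COL1A1 was at 98.9 to 107 TPM in PANC-1 and 0.121 TPM or lower in AsPC-1. COL3A1 was at 1.69 to 1.98 TPM and PDGFRB at 0.74 to 0.892 TPM in PANC-1, and both were at 0.122 TPM or lower in AsPC-1.

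The first comparison asked how the levels of the replication genes differ between the lines, over 4 libraries of each. Values below are differences in log2(TPM + 1), fitted with limma across the 19122 genes that reached 1 TPM in no fewer than 2 libraries, and an adjusted p is a Benjamini-Hochberg value over those genes. Of the 36 members, 26 were higher in PANC-1 and 4 were lower at an adjusted p under 0.05. Such a call was common in these data: 83.8% of all genes tested passed, 62.3% higher and 21.5% lower in PANC-1. The members' median difference was 0.49 and that of all genes 0.55, so the middle of the list lay near that of all genes. The larger mitochondrial share in AsPC-1 lowers the TPM of every other gene there, and when the TPM were rescaled without mitochondrial transcripts 15 members passed as higher and 11 as lower in PANC-1 (median 0.14, all genes 0.25). After quantile normalization 10 passed as higher and 12 as lower (median 0.0067, all genes 0.042). The direction of 13 members differed between these 3 scalings. The sentences on single genes below therefore rest first on the 14 members called in the same direction under all 3, of which 10 were higher and 4 lower in PANC-1.

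**Figure D1:**
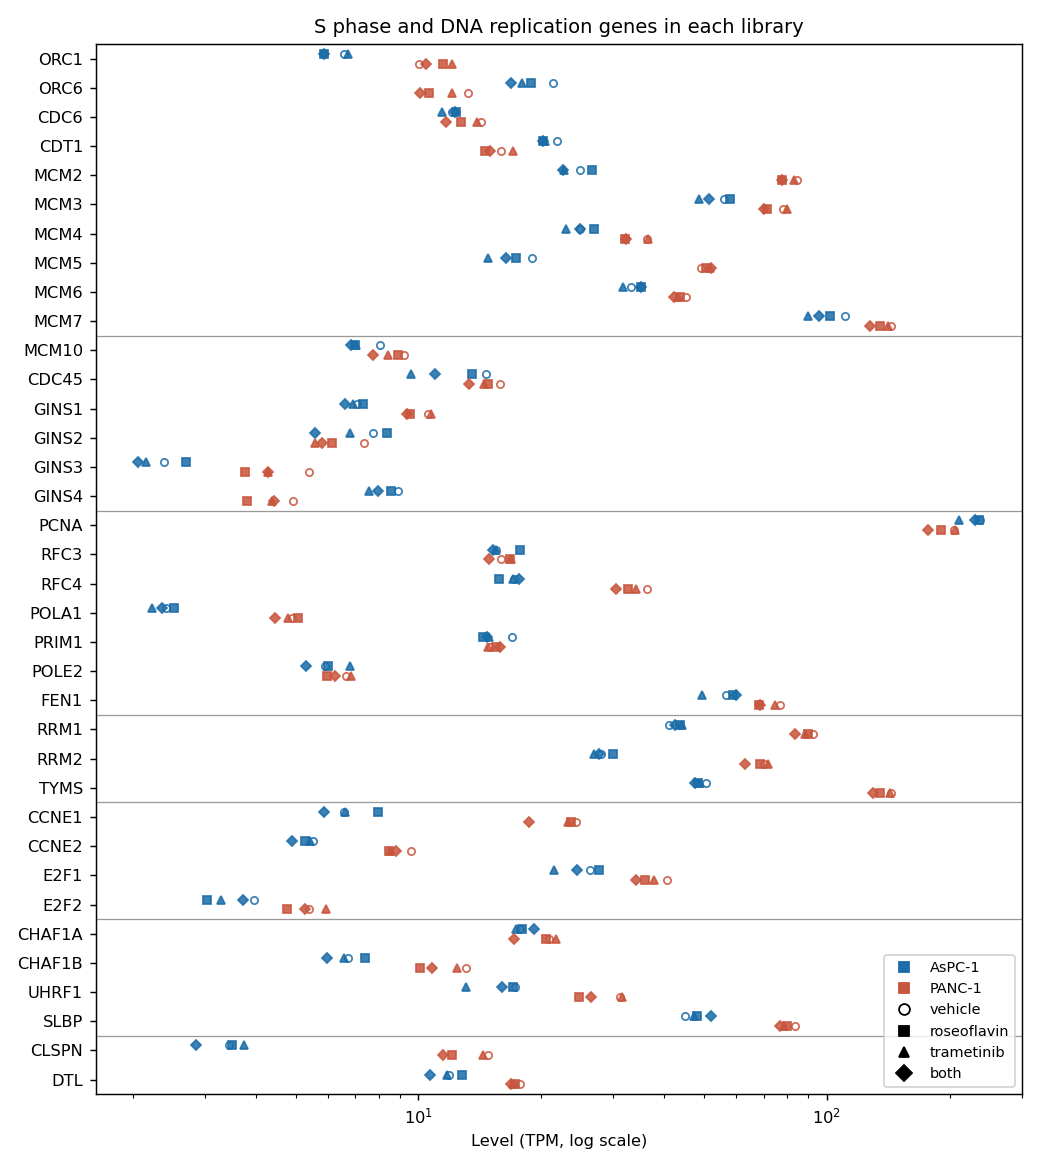
Level of each of the 36 genes in each of the 8 libraries, in TPM on a log scale, with genes in rows grouped by role; colour marks the line and symbol shape the treatment, 1 library per symbol. TYMS, MCM2, CLSPN and CCNE1 form separate blue and red groups, with the PANC-1 libraries to the right, while GINS4, ORC6 and CDT1 lie to the right in AsPC-1.

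Among the licensing genes, the subunits of the MCM ring differed between the lines by unequal amounts, although the ring holds them in equal numbers. MCM2, a ring subunit on chromosome 3, 127598223 to 127622436, plus strand, was at 24.9, 26.6, 22.7 and 22.6 TPM in AsPC-1 with vehicle, roseoflavin, trametinib and both, and at 84.6, 77.7, 83.3 and 77.7 TPM in PANC-1. The lines did not overlap, PANC-1 was 3.34-fold higher in mean TPM, and the fitted difference was 1.70 (SE 0.055), adjusted p 3.10e-07. MCM5 was 3.01-fold higher in PANC-1, at 50.9 ± 1.29 TPM against 16.9 ± 1.76 TPM (SD over the 4 libraries of a line, which differ in treatment). MCM3, MCM4, MCM6 and MCM7 were 1.40-fold, 1.37-fold, 1.29-fold and 1.37-fold higher, differences that passed on the TPM scale but under neither of the other scalings, where MCM4 turned lower in PANC-1 after quantile normalization and MCM6 under both. MCM7 had the highest level of the ring in both lines, 99.5 ± 8.96 TPM and 137 ± 7.29 TPM, and the lowest was MCM5 in AsPC-1 and MCM4 in PANC-1 (34.2 ± 2.41 TPM).

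The loaders of the ring went both ways. ORC6, a subunit of the origin recognition complex on chromosome 16, 46689643 to 46698394, plus strand, was 1.63-fold higher in AsPC-1, a fitted difference of -0.66 (SE 0.051) for PANC-1 minus AsPC-1. CDT1, which brings the ring to the origin, was 1.32-fold higher in AsPC-1 (20.6 ± 0.782 TPM against 15.6 ± 1.07 TPM). ORC1, another subunit of that complex, was 1.76-fold higher in PANC-1 without passing after quantile normalization, and CDC6 did not pass on the TPM scale (difference 0.11 (SE 0.065), adjusted p 0.141) and turned lower in PANC-1, past the threshold, under both other scalings.

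Of the helicase activation genes, GINS3 and GINS4, subunits of one complex, were ordered oppositely. GINS3 was at 2.38, 2.70, 2.16 and 2.05 TPM in AsPC-1 with vehicle, roseoflavin, trametinib and both, the lowest member there, and at 5.41, 3.75, 4.27 and 4.29 TPM in PANC-1. GINS4, on chromosome 8, was at 8.91, 8.58, 7.57 and 7.96 TPM in AsPC-1 and at 4.93, 3.80, 4.37 and 4.43 TPM in PANC-1, where it was the lowest member. The libraries of the lines did not overlap for either gene: GINS3 was 1.91-fold higher in PANC-1 and GINS4 1.88-fold higher in AsPC-1. GINS3 did not pass after quantile normalization, and GINS4 passed under all 3 scalings. GINS2, MCM10 and CDC45, which joins GINS in the active helicase, had overlapping libraries; MCM10 and CDC45 passed as higher in PANC-1 in TPM and were lower there under both other scalings, and GINS2 was lower under all 3 without passing in TPM. CDC45 did not pass in TPM without the PANC-1 trametinib or combination library (adjusted p 0.0773 and 0.0722), and GINS2 passed without the AsPC-1 combination library (adjusted p 0.0428). GINS1, the remaining subunit, was 1.44-fold higher in PANC-1 in TPM and turned lower after quantile normalization.

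At the fork, PCNA was the most abundant member in both lines. It was at 238, 236, 211 and 230.5 TPM in AsPC-1 with vehicle, roseoflavin, trametinib and both, and at 204, 190.2, 206 and 177 TPM in PANC-1. The AsPC-1 libraries were all above the PANC-1 ones, by 1.18-fold in the mean (-0.24 (SE 0.059), adjusted p 0.00831). POLA1, the catalytic subunit of the polymerase that starts each new strand, was 2.02-fold higher in PANC-1 at a low level, 4.81 ± 0.262 TPM against 2.37 ± 0.12 TPM. RFC4, a subunit of the loader that places PCNA on DNA, was 1.98-fold higher in PANC-1, whereas its partner RFC3 differed by 0.012 (SE 0.063) with overlapping libraries. PRIM1, the catalytic subunit of primase, differed by 0.0072 (SE 0.062), and POLE2, a subunit of the leading strand polymerase, by 0.087 (SE 0.062); these and RFC3 did not pass on the TPM scale and were lower in PANC-1, past the threshold, under both other scalings. FEN1, the nuclease that trims Okazaki fragments, was 1.28-fold higher in PANC-1 in TPM and turned lower, without passing, under both.

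All 3 genes of nucleotide supply passed as higher in PANC-1 under the 3 scalings, and the ratios below are those in TPM. TYMS, thymidylate synthase, on chromosome 18, 657604 to 673578, plus strand, was at 50.7, 48.3, 49.0 and 47.5 TPM in AsPC-1 and at 144, 135, 143 and 129.5 TPM in PANC-1 in the same order of treatments. Every PANC-1 library was above every AsPC-1 library, by 2.82-fold in the mean, and the fitted difference of 1.48 (SE 0.032) had the smallest adjusted p of any member, 5.17e-08. RRM1 and RRM2, the subunits of ribonucleotide reductase, were 2.07-fold and 2.43-fold higher in PANC-1. TYMS overlaps the gene ENOSF1 on the opposite strand. The library kit keeps the strand, but whether the counting used it is not given in the sources used here. The same limit holds for 8 other members with an overlapping protein-coding gene on the opposite strand: MCM2, MCM7, GINS2, RFC4, PRIM1, FEN1, CCNE2 and CHAF1A. PRIM1, RRM2, FEN1 and CHAF1B share exon sequence with another protein-coding gene on their own strand, so their levels depend on how such reads were assigned.

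The G1/S regulators were higher in PANC-1 in TPM, 4 of 4 past the threshold. Cyclin E1, CCNE1, was at 6.58, 7.94, 6.61 and 5.87 TPM in AsPC-1 and at 24.3, 23.7, 23.2 and 18.7 TPM in PANC-1, and cyclin E2, CCNE2, was 1.67-fold higher in PANC-1. CCNE1 was 3.33-fold higher and passed under all 3 scalings, and CCNE2 did not pass after quantile normalization. E2F1 and E2F2, activating members of the E2F family, were 1.48-fold and 1.53-fold higher, which held on the TPM scale only, and E2F2 turned lower in PANC-1 after quantile normalization. E2F1 stood well above E2F2 in both lines: E2F1 lay between 21.5 and 27.7 TPM in the AsPC-1 libraries and 34.1 and 40.6 TPM in those of PANC-1, and E2F2 between 3.03 and 3.96 TPM and 4.78 and 5.94 TPM.

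Of the chromatin genes, SLBP, which binds the stem-loop of histone mRNAs, was 1.66-fold higher in PANC-1 in TPM and passed as higher under all 3 scalings, with fitted differences of 0.72 in TPM, 0.33 without mitochondrial transcripts and 0.27 after quantile normalization. UHRF1, which recruits the maintenance DNA methyltransferase, and CHAF1B, a subunit of the chromatin assembly factor, were 1.80-fold and 1.74-fold higher in TPM and did not pass after quantile normalization. CHAF1A, the large subunit of that factor, differed by 0.14 (SE 0.079) on the TPM scale (adjusted p 0.145, and 0.00903 without the PANC-1 combination library) and was lower in PANC-1, past the threshold, under both other scalings. CLSPN, claspin, which carries the checkpoint signal from stalled forks to the kinase CHK1, lies on chromosome 1, 35720218 to 35769967, minus strand. It was at 3.43, 3.50, 3.73 and 2.86 TPM in AsPC-1 with vehicle, roseoflavin, trametinib and both, and at 14.8, 12.1, 14.4 and 11.5 TPM in PANC-1. That was the widest ratio in mean TPM among the members, 3.90-fold, with no overlap (1.69 (SE 0.067), adjusted p 7.61e-07). The fitted difference of CLSPN was 1.42 without mitochondrial transcripts and 1.14 after quantile normalization, where that of MCM2 was larger (1.23). DTL, the receptor subunit of the ubiquitin ligase that removes CDT1 in S phase, was 1.46-fold higher in PANC-1 in TPM and did not pass under the other scalings.

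The promoters of these genes often share a sequence that the choice by name did not use. E2F-type sites were searched as TTTCCCGC, TTTCGCGC, TTTGCCGC and TTTGGCGC on both strands, in RefSeq promoter windows (GRCh38.p14) that run from 250 bases before to 50 after the start site. Windows were found for 32 members and not for MCM4, MCM5, GINS4 and CCNE2. A match was found in 19 of these 32 genes (59.4%) and in 1090 of 27303 genes with a window (3.99%). The short CCAAT motif, common in promoters, was found in 20 of the 32 (62.5%) and in 39.7% of all genes. Regulation by E2F is part of what such genes are known for, so the share describes the list and is no test. By role, matches were found in 6 of 8 licensing genes, 3 of 5 helicase activation genes, 4 of 7 fork genes, 1 of 3 nucleotide supply genes, 2 of 3 G1/S genes, 1 of 4 chromatin genes and 2 of 2 checkpoint genes with a window.

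The 5 stretches below are shown because they belong to members that lead a comparison in this text and hold a match. Each runs 5′ to 3′ in the direction of the gene, from 200 bases before to 30 after the RefSeq start site in GRCh38.p14, with E2F-type matches in capitals; a match is a description of the letters and not evidence of binding. E2F1 is at chr20:33686356-33686585 (minus strand), MCM2 at chr3:127598211-127598440 (plus strand), MCM3 at chr6:52284713-52284942 (minus strand), GINS2 at chr16:85688925-85689154 (minus strand) and CLSPN at chr1:35769949-35770178 (minus strand).
E2F1: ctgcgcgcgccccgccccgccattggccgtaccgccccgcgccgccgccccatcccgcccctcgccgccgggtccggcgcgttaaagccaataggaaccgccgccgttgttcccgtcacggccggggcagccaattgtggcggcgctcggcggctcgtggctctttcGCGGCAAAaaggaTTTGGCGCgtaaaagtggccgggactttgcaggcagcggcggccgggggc
MCM2: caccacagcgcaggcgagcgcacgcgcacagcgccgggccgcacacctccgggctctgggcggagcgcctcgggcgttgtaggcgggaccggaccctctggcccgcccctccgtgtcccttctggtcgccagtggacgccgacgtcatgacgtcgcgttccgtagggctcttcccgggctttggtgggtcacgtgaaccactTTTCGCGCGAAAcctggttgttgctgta
MCM3: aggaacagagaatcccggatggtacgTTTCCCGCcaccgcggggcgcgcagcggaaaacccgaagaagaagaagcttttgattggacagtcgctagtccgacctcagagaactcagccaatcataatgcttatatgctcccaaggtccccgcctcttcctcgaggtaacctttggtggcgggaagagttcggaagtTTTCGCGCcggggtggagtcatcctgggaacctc
GINS2: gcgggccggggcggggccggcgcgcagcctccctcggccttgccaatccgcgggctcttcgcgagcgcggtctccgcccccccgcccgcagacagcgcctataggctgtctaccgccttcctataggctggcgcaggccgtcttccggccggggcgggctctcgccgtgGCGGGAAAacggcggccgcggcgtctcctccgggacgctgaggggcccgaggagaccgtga
CLSPN: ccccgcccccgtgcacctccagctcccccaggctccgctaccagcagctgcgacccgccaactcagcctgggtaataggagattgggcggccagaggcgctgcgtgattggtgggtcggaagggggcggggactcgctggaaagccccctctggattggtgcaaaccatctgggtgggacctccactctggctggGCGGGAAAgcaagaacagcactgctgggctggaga
The matches of E2F1 begin 33 and 20 bases before the start site, on opposite strands. MCM2 holds overlapping matches on both strands that begin at bases 3 and 7 after the start, which give 1 run of capitals. MCM3 has a match 174 and another 4 bases before the start, GINS2 has its match 31 and CLSPN 5 bases before it. ORC6, CDC45, MCM10 and CCNE1, which recur below, held no match in their windows. Only exact copies of the words searched counted as a match. A CDC45 window and the MCM10 window hold TTTGGCGG, which differs from TTTGGCGC in the last letter. The absence of a match is therefore no evidence that a promoter lacks an E2F site.

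**Figure D2:**
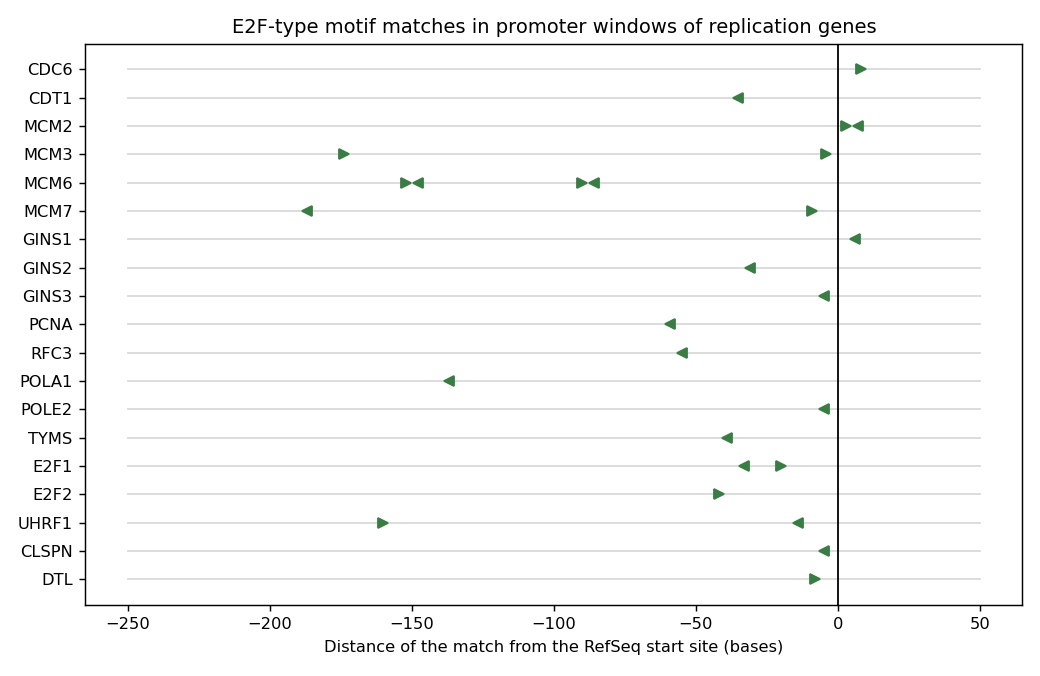
Position of each E2F-type match in the promoter windows of the 19 genes that hold a match, in bases from the RefSeq start site (vertical line); triangles pointing right mark the strand of the gene and those pointing left the other strand. In 17 of the 19 genes a match begins within 60 bases of the start site.

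The next comparison took the lines together and set 4 libraries with trametinib against 4 without it. Most members were slightly lower with trametinib, 31 of 36, with a median difference of -0.065; 41% of all genes tested were lower and their median was 0.018. No member passed: 0 of 36, and 0% of all genes, had an adjusted p under 0.05. At an unadjusted p under 0.05, 4 members were lower, against 1.78% of all genes, and this count was 2 without the AsPC-1 trametinib, PANC-1 vehicle or PANC-1 combination library and 6 or 7 without the PANC-1 roseoflavin or trametinib library. The trametinib libraries can be matched 4 times with their counterparts, and 12 of 36 members were lower in all 4 matches, against 4.54% of all genes. Those 12 were ORC6, CDC6, MCM2, MCM6, MCM7, MCM10, CDC45, GINS2, POLA1, TYMS, E2F1 and DTL. In bulk RNA, fewer cells in S phase and less RNA of these genes per cell cannot be told apart. The members' median was -0.030 without the AsPC-1 trametinib library, -0.035 without the AsPC-1 roseoflavin library and -0.098 without the PANC-1 trametinib library.

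Helicase activation was the role with the lowest median, -0.12, and its 6 genes were all lower. GINS2, on chromosome 16, 85676198 to 85690073, minus strand, was at 7.74, 8.37, 6.81 and 5.59 TPM in AsPC-1 with vehicle, roseoflavin, trametinib and both, and at 7.37, 6.14, 5.57 and 5.80 TPM in PANC-1. In each line the libraries with trametinib were below those without it. The fitted difference was -0.27 (SE 0.078) and did not pass (adjusted p 0.861). CDC45, on chromosome 22, 19479459 to 19520612, plus strand, was at 14.7, 13.5, 9.56 and 11.0 TPM in AsPC-1, and in PANC-1 at 15.8, 14.8, 14.5 and 13.3 TPM, with both trametinib libraries below both others in each line; its difference was -0.28 (SE 0.084), adjusted p 0.861. MCM10, which helps fire the loaded ring, was at 8.04, 6.98, 7.02 and 6.83 TPM in AsPC-1, and in PANC-1 at 9.20, 8.92, 8.44 and 7.73 TPM. It was lower in 4 of 4 matches (-0.12 (SE 0.046)), but the AsPC-1 roseoflavin library lay as low as the trametinib ones.

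Of the licensing genes, 8 of 10 were lower with trametinib, with a median of -0.066. ORC6 was at 21.3, 18.9, 17.9 and 16.8 TPM in AsPC-1, and in PANC-1 at 13.2, 10.6, 12.1 and 10.1 TPM, so that vehicle was the highest library of each line and the combination the lowest. Its difference with trametinib was -0.15 (SE 0.051), adjusted p 0.861. The other roles had medians of -0.049 (fork, 6 of 7 lower), -0.036 (nucleotide supply, 3 of 3), -0.10 (G1/S control, 3 of 4), -0.053 (chromatin, 3 of 4) and -0.072 (checkpoint, 2 of 2). POLE2 was the only fork gene and E2F2 the only G1/S gene that was higher, by 0.026 (SE 0.062) and 0.061 (SE 0.081). POLE2 was at 5.91, 6.01, 6.79 and 5.31 TPM in AsPC-1, and in PANC-1 at 6.66, 5.98, 6.83 and 6.24 TPM, with the trametinib library highest in each line; without the AsPC-1 vehicle or trametinib library its difference was below 0. E2F2 was at 3.96, 3.03, 3.28 and 3.72 TPM in AsPC-1, and in PANC-1 at 5.40, 4.78, 5.94 and 5.26 TPM; the AsPC-1 trametinib library was below vehicle and the PANC-1 one was the highest of its line.

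Within AsPC-1, 29 of 36 members were lower with trametinib (43.3% of all genes), with a median of -0.092 (all genes 0.016), and 23 were lower in both matches (20.9% of all genes). No AsPC-1 difference passed (0% of all genes), and 7 had an unadjusted p under 0.05 and were lower, against 4.65% of all genes: ORC6, MCM2, MCM3, MCM4, MCM7, CDC45 and E2F1. That count was 2 without any 1 of the PANC-1 libraries, which share in the estimate of the spread, and was 5 to 8 without an AsPC-1 library. CDC45 differed by -0.42 (SE 0.087, adjusted p 0.278). E2F1, on chromosome 20, 33675683 to 33686404, minus strand, was at 26.3, 27.7, 21.5 and 24.4 TPM, and its libraries with trametinib were the lowest of AsPC-1; the difference was -0.23 (SE 0.047), adjusted p 0.28. MCM3, a ring subunit on chromosome 6, 52264009 to 52284881, minus strand, was at 56.0, 57.9, 48.7 and 51.6 TPM, again with both trametinib libraries lowest (-0.18 (SE 0.039), adjusted p 0.281). ORC1 was the only licensing gene and RRM1 the only gene of nucleotide supply that was higher, by 0.014 (SE 0.11) and 0.028 (SE 0.051). ORC1 was at 6.55, 5.87, 6.71 and 5.87 TPM and RRM1 at 41.2, 43.8, 44.1 and 42.5 TPM in AsPC-1, and for both genes the trametinib library was the highest of the line, and without it or the vehicle library both differences were below 0. That of ORC1 was also below 0 under both other scalings. SLBP was the only member higher in both AsPC-1 matches, by 0.09 (SE 0.038).

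Within PANC-1, 24 of 36 members were lower with trametinib (44.5% of all genes), with a median of -0.047, and 17 were lower in both matches (21.5% of all genes). The median was -0.023 without the PANC-1 roseoflavin or combination library. No member passed (0% of all genes) and 0 had an unadjusted p under 0.05, against 2.35% of all genes that had such a p and were lower; the count was 1 without any 1 of the AsPC-1 libraries. The smallest p belonged to MCM10 at -0.15 (SE 0.065), SLBP at -0.075 (SE 0.038) and ORC6 at -0.094 (SE 0.05), each with an adjusted p of 1. SLBP was at 83.6, 79.9, 78.4 and 76.8 TPM in PANC-1 with vehicle, roseoflavin, trametinib and both, with vehicle highest. The licensing genes divided evenly here, 5 lower and 5 higher, with a median of -0.0040.

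The ERK output genes, which trametinib is known to lower, were measured beside these. Of 14 such genes 13 were lower over both lines, with a median of -0.13 and 0 past the threshold. DUSP6, a phosphatase of ERK, was at 193, 176, 155 and 136 TPM in AsPC-1 with vehicle, roseoflavin, trametinib and both, and 18.6, 17.5, 14.0 and 12.5 TPM in PANC-1. By limma it differed by -0.38 (SE 0.036, adjusted p 0.564) with trametinib and by -0.14 (SE 0.036, adjusted p 0.641) with roseoflavin. EGR1, an early response transcription factor, was at 42.2, 36.9, 31.0 and 29.3 TPM and 37.2, 27.9, 30.3 and 23.0 TPM, with differences of -0.33 (SE 0.065, adjusted p 0.861) and -0.26 (SE 0.065, adjusted p 0.615). CCND1, cyclin D1, was at 84.8, 101, 87.3 and 103 TPM in AsPC-1, and in PANC-1 at 144, 145, 136 and 136 TPM, highest in the AsPC-1 libraries with roseoflavin and lowest in the PANC-1 libraries with trametinib. The median of 21 G2 and mitosis genes with trametinib was 0.0061, with 9 lower. The part of ERK output in the members' values was not tested.

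**Figure D3:**
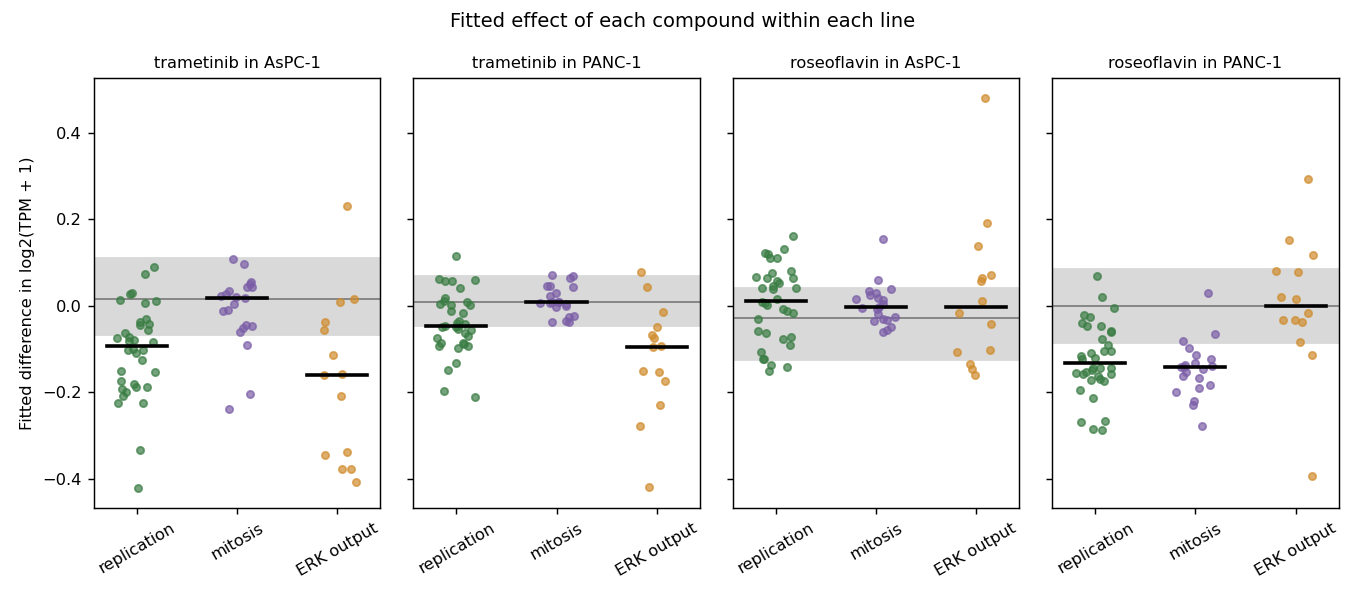
Fitted difference in log2(TPM + 1) with each compound in each line, for the 36 replication genes, 21 G2 and mitosis genes and 14 ERK output genes; each point is a gene, black bars are list medians, and the grey line and band are the median and middle 50% of all genes tested. With roseoflavin in PANC-1 the replication and mitosis medians lie below the band (-0.13 and -0.14), and with trametinib in AsPC-1 the replication median lies below it (-0.092) and the mitosis median within it (0.018).

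The comparison of roseoflavin over both lines asked what the riboflavin analogue changed. Here 30 of 36 members were lower, with a median of -0.064 against -0.017 for all genes, of which 57.8% were lower. None of the 36 passed over both lines (0% of all genes). At an unadjusted p under 0.05, 3 members were lower, ORC6, CLSPN and TYMS, a share near the 5.07% of all genes; the count was 1 without the PANC-1 roseoflavin, trametinib or combination library and 6 without the AsPC-1 trametinib one. ORC6, TYMS, CDT1 and MCM10 were lower in 4 of 4 matches, 4 of 36 against 10.2% of all genes, also near the background. The members' median was -0.024 without the PANC-1 trametinib library and -0.032 without the PANC-1 roseoflavin one.

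ORC6 differed by -0.20 (SE 0.051) with roseoflavin, adjusted p 0.64, and was lower in the presence and in the absence of trametinib in both lines. CLSPN differed by -0.21 (SE 0.067), adjusted p 0.659; its PANC-1 libraries with roseoflavin, 12.1 and 11.5 TPM, were below those without it, 14.8 and 14.4 TPM, whereas in AsPC-1 it was low only in the combination library. TYMS differed by -0.088 (SE 0.032), adjusted p 0.674, a small step that was lower in all 4 matches. All 6 helicase activation genes and all 4 G1/S genes were lower, with medians of -0.081 and -0.069, and 4 of 7 fork genes were, with a median of -0.027. The medians of the licensing, nucleotide supply, chromatin and checkpoint genes were -0.055, -0.023, -0.063 and -0.12.

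Fitted within each line, the members had unlike values, and the difference itself is tested further on. In PANC-1, 34 of 36 members were lower with roseoflavin (49.4% of all genes), with a median of -0.13 where all genes had a median of 0. The count past the adjusted threshold was 0 (0% of all genes). At an unadjusted p under 0.05, 11 members were lower, against 5.01% of all genes: ORC6, CDC6, CDT1, MCM3, MCM4, PCNA, TYMS, E2F1, CHAF1B, UHRF1 and CLSPN. The count was 0 without the PANC-1 vehicle or roseoflavin library, 1 without the PANC-1 trametinib or combination library, and 13 without any 1 of the AsPC-1 libraries, while the median stayed between -0.15 and -0.12 in these fits. In both matches 27 of 36 were lower, against 29.8% of all genes.

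The 3 smallest p in PANC-1 were those of licensing genes. ORC6 was at 13.2 TPM with vehicle and 10.6 TPM with roseoflavin, and at 12.1 TPM with trametinib and 10.1 TPM with both, a difference of -0.27 (SE 0.05), adjusted p 0.376. MCM4, a ring subunit encoded on chromosome 8, was at 36.2, 32.0, 36.4 and 32.3 TPM with vehicle, roseoflavin, trametinib and both, so that both roseoflavin libraries lay below both others; the difference was -0.17 (SE 0.038), adjusted p 0.397. MCM3 showed the same order at 78.1, 71.6, 79.9 and 70.3 TPM (-0.15 (SE 0.039), adjusted p 0.406). E2F1 at 40.6, 35.9, 37.8 and 34.1 TPM, UHRF1 at 31.1, 24.7, 31.6 and 26.4 TPM and CHAF1B at 13.1, 10.1, 12.4 and 10.8 TPM also had their lowest PANC-1 libraries with roseoflavin. The chromatin genes had the lowest median of any role, -0.22, with 4 of 4 lower in both matches. The 2 members that went the other way were MCM5, the only licensing gene to be higher, at 49.3, 50.5, 51.8 and 52.1 TPM (0.02 (SE 0.077), and below 0 without mitochondrial transcripts), and PRIM1, the only fork gene to be higher, at 15.0, 15.5, 14.8 and 15.8 TPM (0.069 (SE 0.07)).

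In AsPC-1 the members divided, 15 lower and 21 higher with roseoflavin, where 61.1% of all genes were lower; the members' median was 0.012 and that of all genes -0.028. None passed (0% of all genes). No member was lower at an unadjusted p under 0.05 (8.57% of all genes) and 2 were higher (2.75% of all genes), SLBP and MCM4; the first count was 2 without any 1 of the AsPC-1 libraries, and the second was 5 without the AsPC-1 vehicle or roseoflavin library and 0 without any of the other 6. In both matches 7 of 36 were lower, against 35.4% of all genes, and 10 were higher, against 17% of all genes. SLBP was at 45.0, 48.2, 47.2 and 52.2 TPM (0.12 (SE 0.038), adjusted p 0.416), MCM4 at 24.9, 26.9, 23.0 and 24.9 TPM (0.11 (SE 0.038), adjusted p 0.44) and MCM6, another ring subunit, at 33.1, 35.0, 31.7 and 35.0 TPM (0.11 (SE 0.04), adjusted p 0.444). For each of these the roseoflavin library exceeded vehicle and the combination library exceeded trametinib. TYMS was the only gene of nucleotide supply to be lower, at 50.7, 48.3, 49.0 and 47.5 TPM (-0.058 (SE 0.037)). The AsPC-1 median was 0.027 without the trametinib or combination library of that line.

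Other quantities also differed with roseoflavin, in AsPC-1 not always in the same direction in both matches. The mitochondrial share was 44.1% in the AsPC-1 roseoflavin library against 41.2% with vehicle and 41.3% with both against 42.2% with trametinib. In PANC-1 it was 23.7% against 25.6% and 22.8% against 24.8%, lower in both matches. The 21 G2 and mitosis genes had a median of -0.14 in PANC-1, 20 of them lower, and of -0.0031 in AsPC-1, 11 of them lower. MKI67, a mark of cycling cells, was at 64.5, 52.6, 64.3 and 53.2 TPM in PANC-1 with vehicle, roseoflavin, trametinib and both, lower in both roseoflavin libraries, and at 43.2, 44.6, 44.8 and 45.2 TPM in AsPC-1. CDKN1A, an inhibitor of cyclin-dependent kinases, was at 31.4, 27.4, 29.1 and 29.8 TPM in AsPC-1, and in PANC-1 at 128, 122, 130.1 and 125 TPM. Vehicle was above roseoflavin in both lines, but the combination was above trametinib in AsPC-1 and below it in PANC-1. The part of these quantities in the members' values was not tested.

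The difference between the lines in each compound's effect was tested in the same fit, as PANC-1 minus AsPC-1. For roseoflavin 30 of 36 members had a difference below 0 (42.1% of all genes), with a median of -0.15 against 0.036 for all genes. None passed (0% of all genes), and 7 were below 0 at an unadjusted p under 0.05, against 3.54% of all genes; the count was 1 or 2 without any 1 of the PANC-1 libraries and 7 to 10 without an AsPC-1 one. The smallest p were those of MCM4, -0.28 (SE 0.054) (adjusted p 0.336), E2F1, -0.28 (SE 0.066) (adjusted p 0.356), and MCM3, -0.22 (SE 0.055) (adjusted p 0.365). For these 3 genes roseoflavin went with higher values in AsPC-1 and lower values in PANC-1 in every match. UHRF1 had the largest difference in size, -0.42 (SE 0.12).

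For trametinib 27 of 36 members had a difference above 0 and 9 below (53.2% of all genes were below), with a median of 0.072. None passed (0% of all genes), and at an unadjusted p under 0.05 SLBP was below 0, 1 of 36 against 6.01% of all genes, and MCM3 above; the count above 0 was 8 without the AsPC-1 roseoflavin or combination library, and without any 1 of the PANC-1 libraries both counts were 0. MCM3 differed by 0.18 (SE 0.055) (adjusted p 0.508) and SLBP by -0.16 (SE 0.053) (adjusted p 0.509). MCM2, next by p, differed by 0.16 (SE 0.064), from -0.17 with trametinib in AsPC-1 and -0.011 in PANC-1. The median was 0.029 without the AsPC-1 roseoflavin or combination library.

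**Figure D4:**
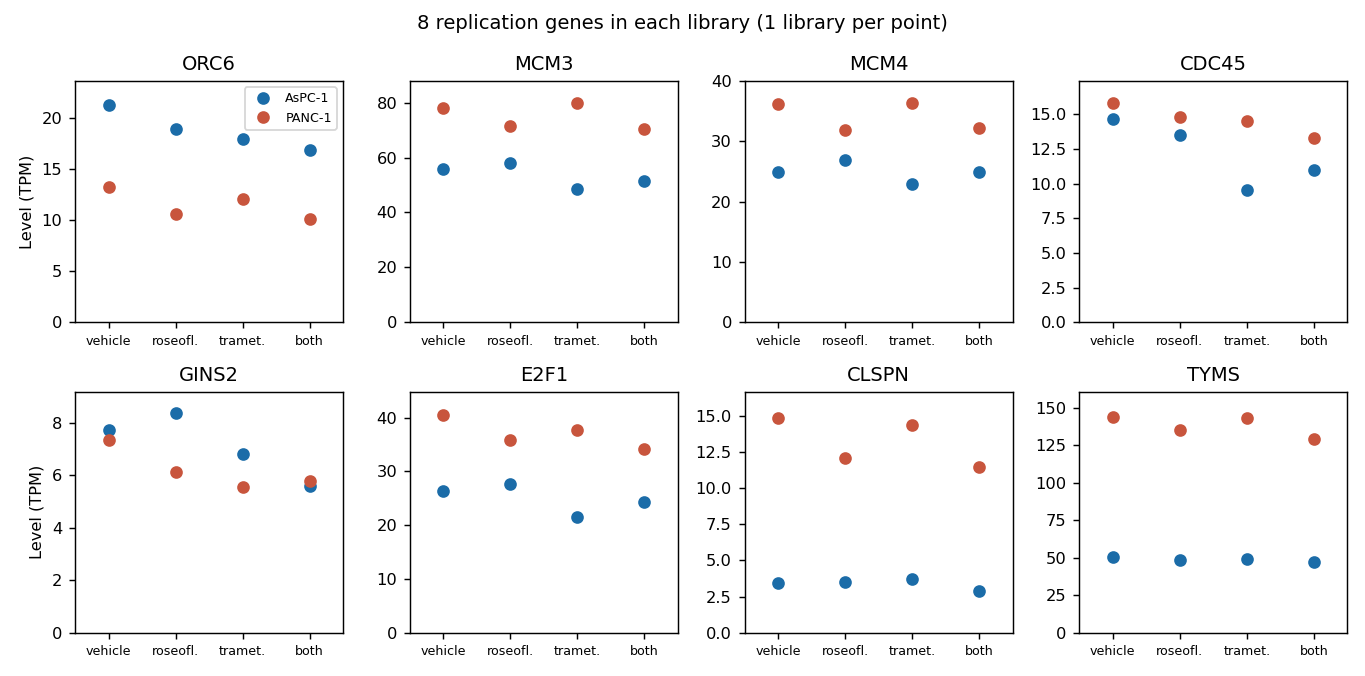
Level in TPM of 8 replication genes in each library, 1 point per library, with the treatment on the horizontal axis and colour for the line; each axis starts at 0. ORC6 is highest with vehicle and lowest with both compounds in each line, MCM3, MCM4 and E2F1 are lower with roseoflavin in PANC-1 and not in AsPC-1, and CDC45 is lowest in the 2 AsPC-1 libraries with trametinib (9.56 and 11.0 TPM).

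With both compounds against vehicle, 35 of 36 members were lower over the lines (48.5% of all genes), with a median of -0.12 against 0.0046 for all genes, and 26 were lower in each line (22.7% of all genes). Again 0 members passed (0% of all genes). At an unadjusted p under 0.05, 5 members were lower, ORC6, MCM10, GINS2, CCNE1 and CLSPN, against 3.39% of all genes; the count was 1 without the PANC-1 vehicle library, 2 without the PANC-1 combination library, 3 without the AsPC-1 vehicle or combination library and 6 or 7 without the others. ORC6 differed by -0.34 (SE 0.079) (adjusted p 0.821), CLSPN by -0.27 (SE 0.092) (adjusted p 0.901) and MCM10 by -0.22 (SE 0.074) (adjusted p 0.901). All genes of the licensing, helicase, fork, nucleotide, G1/S and checkpoint roles were lower, with medians from -0.21 for helicase activation to -0.065 for the fork. SLBP was the only member that was higher, by 0.044 (SE 0.086): the combination library was its highest in AsPC-1, 52.2 TPM against 45.0 with vehicle, and its lowest in PANC-1, 76.8 against 83.6 TPM, and without the AsPC-1 vehicle or combination library the difference was below 0. This comparison shares its vehicle libraries with those of the single compounds, so the values are set side by side and not counted as separate evidence.

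Library against library, the sum of the 36 genes was 996, 994, 901 and 950 TPM in AsPC-1 with vehicle, roseoflavin, trametinib and both, and 1472, 1372, 1451 and 1314 TPM in PANC-1. The lowest AsPC-1 sum was that with trametinib, and the lowest PANC-1 sum that with both compounds. Members at least 1.2-fold lower in TPM + 1 with both compounds were ORC6, CDC45 and GINS2 in AsPC-1, 3 of 36 against 13.7% of all genes, and ORC6, CDC6, GINS2, GINS3, CCNE1, CHAF1A and CLSPN in PANC-1, 7 of 36 against 9.43% of all genes. ORC6 and GINS2 were the members on both lists. These are single libraries with no replicate check.

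**Figure D5:**
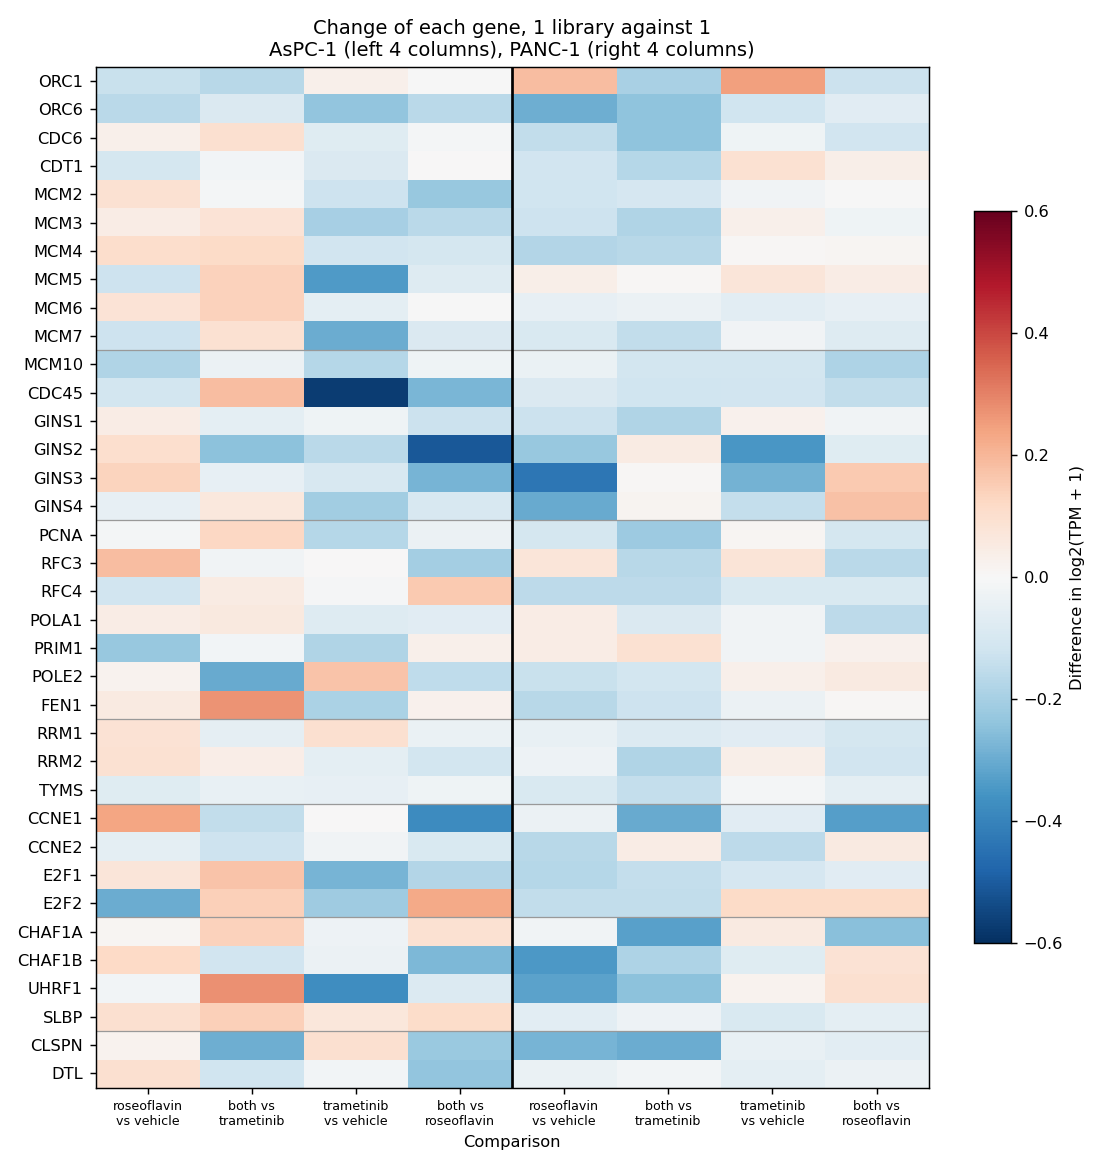
Difference in log2(TPM + 1) between single libraries for each of the 36 genes, with genes in rows by role and the 4 matched comparisons of each line in columns; blue is lower and red higher with the compound. The AsPC-1 columns of trametinib (29 of 36 genes lower in each) and the PANC-1 columns of roseoflavin (31 and 30 lower) are mostly blue, and the AsPC-1 columns of roseoflavin are mixed (15 and 18 lower).

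The interaction of the compounds measured how far both compounds together lay from their added single effects on the log scale. The members divided, 17 below 0 (42.4% of all genes) and 19 above, with a median of 0.0087 that turned negative after quantile normalization and without mitochondrial transcripts. No interaction passed (0% of all genes), and CCNE1 was the only member below 0 at an unadjusted p under 0.05, against 0.999% of all genes; without the AsPC-1 vehicle, roseoflavin or combination library or the PANC-1 trametinib or combination library the count was 0. With all libraries, the count was also 0 after quantile normalization, without mitochondrial transcripts and in the fit without the mean-variance trend. CCNE1 had an interaction of -0.32 (SE 0.13), adjusted p 1, and its lowest library in each line was the combination: 6.58, 7.94, 6.61 and 5.87 TPM in AsPC-1, and in PANC-1 at 24.3, 23.7, 23.2 and 18.7 TPM. RFC3 and ORC1 followed at -0.22 (SE 0.10) and -0.20 (SE 0.13). RFC3 was at 15.5, 17.7, 15.5 and 15.2 TPM in AsPC-1, and in PANC-1 at 15.9, 16.8, 16.8 and 14.9 TPM, with the combination library lowest in both lines.

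The members varied among themselves in how much their 4 libraries of a line spread. The coefficient of variation, SD over mean, ran from 2.86% (TYMS) to 19.1% (CDC45) in AsPC-1, with a median of 7.50%, and from 2.35% (DTL) to 15.7% (GINS3) in PANC-1, with a median of 6.97%. Counting error alone, from the estimated reads, gave a median standard error of 0.061 for a change within a line, where the fitted median was 0.068, and of 0.044 over both lines, where it was 0.062. The genes with and without an E2F-type match are set side by side: with roseoflavin in PANC-1, 19 of 19 with a match were lower (median -0.14) and 12 of 13 without (median -0.11), and with trametinib in AsPC-1, 17 of 19 (median -0.10) and 8 of 13 (median -0.082). With trametinib in PANC-1 the order was the other way, 13 of 19 with a match lower (median -0.047) and 10 of 13 without (median -0.086). With roseoflavin in AsPC-1, 9 of 19 with a match were lower (median 0.041) and 5 of 13 without (median 0.017). None of these differences between genes with and without a match was tested.

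Other genes of the pathway, outside the 36, were followed in lists of the same roles, and 0 of their genes passed with either compound. With trametinib over both lines, 12 of 16 other licensing and firing genes were lower (median -0.031), 15 of 21 other fork genes (-0.021), 7 of 11 other nucleotide supply genes (-0.024), 4 of 10 other chromatin assembly genes (0.0018), 11 of 16 checkpoint and fork repair genes (-0.016) and 8 of 24 other E2F and RB pathway genes (0.012). With roseoflavin the same lists had 13, 12, 7, 7, 12 and 16 genes lower, with medians of -0.050, -0.022, -0.016, -0.048, -0.055 and -0.044. Over both lines 41% of all genes were lower with trametinib and 57.8% with roseoflavin. Several lists lay near these shares, such as 4 of 10 other chromatin assembly genes with trametinib and 12 of 21 other fork genes with roseoflavin. Within PANC-1, with roseoflavin, where 49.4% of all genes were lower, the same lists had 13 of 16, 14 of 21, 8 of 11, 7 of 10, 14 of 16 and 15 of 24 genes lower, with medians of -0.053, -0.051, -0.068, -0.065, -0.073 and -0.045. Between the lines, in TPM only, 11, 15, 8, 9, 12 and 18 of them passed as higher in PANC-1 and 2, 6, 1, 0, 3 and 3 as lower, beside 62.3% and 21.5% of all genes.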

How the data were processed

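Polyadenylated RNA of the 8 libraries was sequenced from a stranded kit, per the labels' protocols. The authors deposited 1 table of TPM per gene for all libraries, per the file headers. The submitters' processing notes name STAR 2.7.3a, HTSeq 2.0.2 and hg38; the annotation, and whether counting used strand, are not given in the sources used here. From that table, 985926 rows without content were dropped and 62649 genes kept. No pooled or foreign value columns were used.

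Genes that reached 1 TPM in no fewer than 2 libraries were tested on log2(TPM + 1) with limma 3.58.1 in R 4.3.3 (mean-variance trend, Benjamini-Hochberg threshold 0.05). The effects over both lines came from a fit of line and both compounds (4 residual degrees of freedom), the effects within lines and their differences from a fit of both compounds within each line (2), and the combination and the interaction from fits with 3. Differences within lines therefore assume that the compounds add up on the log scale. The fit over both lines also assumes that each compound has the same effect in both lines. Any difference between the lines in an effect enters the errors of that fit. A match is 1 library with a compound against the library that differs in that compound alone. Depth was estimated from the steps of low TPM values times GENCODE 29 exon lengths, which 92.9% of gene IDs had; 84.2% to 85.5% of low values came within 0.1 of a whole read. These reads served for depth and counting error only, and counting error covers no other source. Gene positions are those of GENCODE 29 on GRCh38.

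Alternatives were a pseudocount of 0.1, no filter, a mean of at least 10 TPM, quantile normalization, TPM rescaled without mitochondrial transcripts, a fit without the trend, and each library left out. The members and lists were chosen with earlier results of these data known. All 36 members are named. Values by library are given for members with the 3 smallest p of a comparison, the highest and lowest member of a line and the only member of a role against the others; DUSP6, EGR1, CCND1, MKI67 and CDKN1A were added as background. In a few more places, members such as CHAF1B and UHRF1 were picked after their values were seen.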

Additional observations from a re-analysis of the deposited data

Results flagged for a closer look

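The members' median change with roseoflavin pointed in opposite directions in the lines. In AsPC-1 the median over the 36 genes, 1 library against 1, was 0.0273 for roseoflavin against vehicle and 0.0144 for both compounds against trametinib. In PANC-1 the same medians were -0.1181 and -0.1453. Both AsPC-1 matches thus lay above 0 and both PANC-1 matches below it, and this difference between the medians was not tested. The fitted differences for single members, given above, did not pass in any of the 36.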

How the results depend on the processing

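Of the values over lists and all genes, 268 stayed near their first value, 35 moved and 5 reversed. A median that stayed within its spread of the first value was counted as near it even where its sign changed. Of the single genes named with a value and the member counts, 1136 stayed, 12 moved, 18 no longer passed, 4 newly passed and 40 reversed. Without a filter on low values (62649 genes tested), counts past the threshold of all genes were 45 and 155 for trametinib in AsPC-1 and PANC-1, 42 and 2 for roseoflavin, 106 and 27 for the differences between lines with trametinib and roseoflavin, and 14 for the interaction, each from 0. With a mean of at least 10 TPM, 8388 of 9368 genes passed between the lines, where fewer genes were tested. The members' median with trametinib in AsPC-1 was -0.1002 with a pseudocount of 0.1, -0.1022 with a mean of at least 10 TPM, -0.115 after quantile normalization and -0.1148 without mitochondrial transcripts. That with roseoflavin in AsPC-1 was 0.0513, 0.0643 and 0.0366 under the last 3, and in PANC-1 -0.1708 without mitochondrial transcripts. The median difference between lines with roseoflavin was -0.1914 after quantile normalization and -0.2054 without mitochondrial transcripts, and the median level difference 0.0067 and 0.1383. The interaction median reversed to -0.0304 and -0.0385 under these, and to -0.0785, -0.0334 and -0.0575 without the AsPC-1 trametinib, AsPC-1 combination and PANC-1 roseoflavin library. Without the PANC-1 vehicle library 22 of 36 members were below 0, so the median was below 0 there too, though near its first value. The level difference reversed after quantile normalization for CDC6 (-0.4195), MCM4 (-0.05201), MCM6 (-0.109), MCM10 (-0.3289), CDC45 (-0.2726), GINS1 (-0.08164), RFC3 (-0.5144), PRIM1 (-0.5216), POLE2 (-0.4749), FEN1 (-0.09776), E2F2 (-0.08324), CHAF1A (-0.3826) and DTL (-0.01547). Without mitochondrial transcripts it reversed for CDC6 (-0.254), MCM6 (-0.01945), MCM10 (-0.131), CDC45 (-0.1083), RFC3 (-0.3627), PRIM1 (-0.3669), POLE2 (-0.2611), FEN1 (-0.03008) and CHAF1A (-0.2361). Under these scalings ORC1 with trametinib in AsPC-1 reversed to -0.00687 and -0.004339, and MCM5 with roseoflavin in PANC-1 to -0.01595 under the second. The causes of these shifts were not tested.

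With each library left out, the members' medians ranged from -0.0976 to -0.0295 (trametinib), -0.0882 to -0.0235 (roseoflavin), -0.0924 to -0.0831 and -0.0584 to -0.0234 (trametinib in AsPC-1 and PANC-1), 0.0121 to 0.0273 and -0.1453 to -0.1181 (roseoflavin in AsPC-1 and PANC-1), 0.0286 to 0.0829 and -0.1475 to -0.1243 (differences between lines with trametinib and roseoflavin), -0.1449 to -0.106 (combination), -0.0785 to 0.0656 (interaction) and 0.4373 to 0.521 (level). Single members that reversed ranged from -0.01238 to 0.07287 (POLE2, trametinib), -0.00168 to 0.03006 and -0.04194 to 0.09754 (ORC1 and RRM1, trametinib in AsPC-1), -0.06796 to 0.1556 (SLBP, combination), and -0.04135 to 0.06136 and -0.03388 to 0.06739 (RFC3 and PRIM1, level). All genes past the threshold between lines numbered 15618 to 15789, from 16027, and 0 in every comparison of a compound. In the main fits, with the filter on low values and all 8 libraries, no gene passed by limma in a comparison of a compound. In those fits 536 (interaction) to 2691 (trametinib in AsPC-1) genes had an unadjusted p under 0.05. Each library left out is a whole group, so those fits rest on the spread of the other groups. The labels carry no replicate numbers, so no fit has them as a term; the line is a term of every fit.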
